A study of Mus musculus with 24 samples.

Results

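RN2 leukaemia cells that carried shOgdh346, a short hairpin RNA against Ogdh, were compared with RN2 cells that carried shRen713, a control hairpin, before doxycycline was given. The members were chosen by their labels alone: 4 shOgdh346 libraries and 4 shRen713 libraries from day 0, which is 8 of the 24 libraries of the study. RN2 is a mouse acute myeloid leukaemia line with the genotype Mll-Af9; NrasG12D, which all groups shared. The retroviral hairpins were inducible by doxycycline, and the full study also held shOgdh2081, another hairpin against Ogdh, and the same clones after 4 days of doxycycline. The shOgdh346 group at day 0 was untreated and came from clones 1 and 5. The shOgdh2081 group at day 0, used here as the closest comparison, was untreated and came from clones 3 and 5. The control group at day 0 was untreated and came from clones 2 and 7. Each clone had 2 libraries, numbered as replicates 1 and 2 in the labels, and each hairpin rested on 2 clonal isolates, so the clone was taken as the unit of replication. A difference between hairpins at day 0 is therefore also a difference between sets of 2 clones.

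Ogdh encodes the E1 subunit of the 2-oxoglutarate dehydrogenase complex, which converts 2-oxoglutarate to succinyl-CoA in the tricarboxylic acid cycle. The E2 subunit is encoded by Dlst and the E3 subunit, shared with other dehydrogenases, by Dld. An inducible hairpin can be expressed at a low level without its inducer, a property often called leakiness, and clones of one cell line can also differ in expression for reasons unrelated to the hairpin.

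Total counts per library were between 7445472 and 18718239 in the shOgdh346 group and between 7275680 and 13232745 in the control group. The chi-square statistic between the libraries of a clone was between 6.78 and 10.3 per gene at day 0, so no pair of libraries was a repeat within counting noise. The replicate number was a large source of variation at day 0: 5107 of 12185 genes differed between replicates 1 and 2 (edgeR with the clone in the model, adjusted p under 0.05). Primary granule genes, which mark early myeloid cells, summed to between 9475 and 14488 CPM, the read counts of a gene scaled by library size, in shOgdh346 libraries and between 10604 and 12604 CPM in control libraries. Of 14 erythroid markers 12 stayed under 1 CPM in all 8 libraries, as did 11 of 14 B cell markers and 15 of 19 T and NK cell markers. The markers above that level included Tfrc of the erythroid list, at 327 to 424 CPM. In the B cell list Ighm had 191 to 276 CPM, and Cd79b had 14.9 and 16.3 CPM in shOgdh346 clone 5.

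Ogdh, on chromosome 11 from 6291633 to 6356642 (ENSMUSG00000020456, GRCm38), was lower in every shOgdh346 library than in any control library before doxycycline. Clone 1 of shOgdh346 had 124 and 135 CPM and clone 5 had 145 and 148 CPM, against 200 and 215 CPM in control clone 2 and 242 and 247 CPM in control clone 7. The groups did not overlap. Over clones, Ogdh averaged 138 ± 11.9 CPM in shOgdh346 and 226 ± 26.5 CPM in the control (SD, n = 2 clones each), which put shOgdh346 at 61.1% of the control. The log2 difference was -0.72 ± 0.15 (SE), with a 95% confidence interval of -1.09 to -0.36. Its unadjusted p was 0.00333 and its adjusted p 0.958 in edgeR's quasi-likelihood test over 13125 genes, so the difference did not pass the test. A two-sided exact permutation test over clones gave p = 0.333, the smallest value that 2 clones against 2 allow. DESeq2, run on the same sums, gave a log2 difference of -0.72 with an adjusted p of 0.00765.

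All 4 pairs of a shOgdh346 clone with a control clone put Ogdh lower in the shOgdh346 clone. The log2 difference was -0.68 for clone 1 minus control clone 2, -0.92 for clone 1 minus control clone 7, -0.50 for clone 5 minus control clone 2 and -0.75 for clone 5 minus control clone 7. Clones of one hairpin differed less: -0.18 for shOgdh346 clone 1 minus clone 5 (edgeR adjusted p = 0.0743) and -0.24 for control clone 2 minus clone 7 (edgeR adjusted p = 0.00666), both in the fit with the replicate number as a block. The 25 tested genes within 1 Mb of Ogdh had a median log2 difference of 0.01 and ran from -0.32 for Aebp1 to 0.39 for Camk2b. The log2 difference of Ogdh lay outside that range.

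The mean of the shOgdh2081 clones lay between those of the other groups, with 178 and 233 CPM of Ogdh in clone 3 and 161 and 170 CPM in clone 5. Their mean was 186 ± 28.5 CPM (SD, n = 2 clones), 82.1% of the control. The log2 difference of shOgdh346 from shOgdh2081 was -0.45 (edgeR, unadjusted p = 0.0258) and did not pass the adjusted test. Between shOgdh2081 and control, 0.884% of all genes were lower and 0.830% higher at an unadjusted p under 0.05, and 0 passed the adjusted test in edgeR, against 2 in DESeq2. After 4 days of doxycycline the same clones had 46.0 ± 14.5 CPM with shOgdh346, 53.1 ± 24.6 CPM with shOgdh2081 and 224 ± 25.7 CPM with the control hairpin (SD, n = 2 clones each). The level without inducer in shOgdh346 clones was thus above the induced level in every library.

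**Figure D1:**
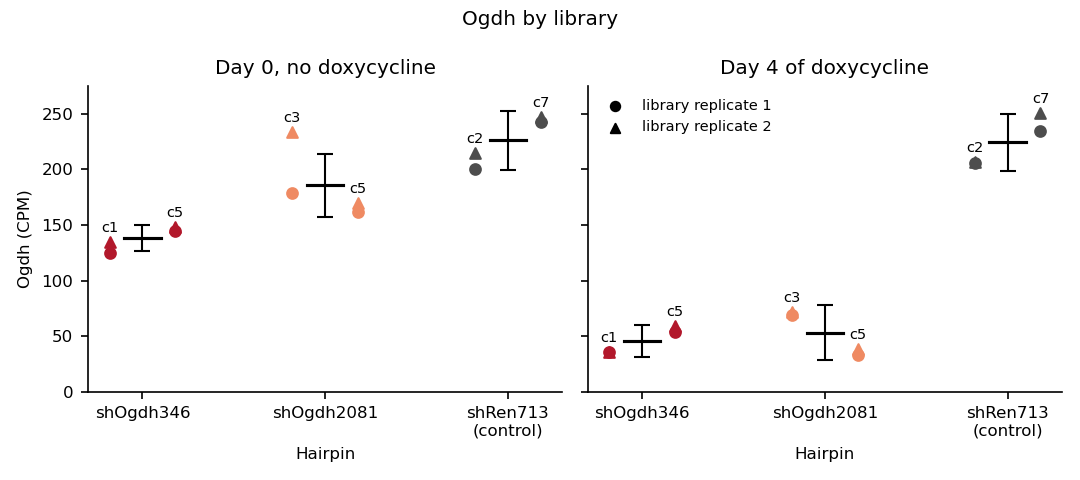
Ogdh in CPM (vertical axis) by hairpin (horizontal axis) at day 0 (left) and day 4 of doxycycline (right). Circles are library replicate 1 and triangles library replicate 2, labelled by clone. Black bars give the mean and SD over 2 clones. At day 0 the 4 shOgdh346 libraries lie between 124 and 148 CPM, below the 4 control libraries at 200 to 247 CPM.

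The partners of Ogdh in the complex had levels near the control. Per kilobase of transcript, Dlst had 28.1 ± 2.45 CPM in shOgdh346 and 29.4 ± 2.84 CPM in the control (SD, n = 2 clones each), a log2 difference of -0.07. Dld had 47.8 ± 6.93 CPM per kilobase in shOgdh346 and 42.0 ± 5.33 in the control, a log2 difference of 0.17. Ogdhl, which encodes an Ogdh-like E1 protein, was low in both groups, at 1.97 ± 0.759 CPM per kilobase in shOgdh346 and 3.58 ± 1.14 in the control, with a log2 difference of -0.86 (edgeR, unadjusted p = 0.0654). Of the 17 tested genes for the complex and for lipoylation, the protein modification its E2 subunit needs, Ogdh was the one with an unadjusted p under 0.05. Over all genes tested, 4.66% had such a p.

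No gene passed the adjusted test between shOgdh346 and control at day 0. In edgeR's quasi-likelihood test on 6 clone sums, 0 of 13125 genes (0%) had an adjusted p under 0.05, and the smallest adjusted p was 0.958. At an unadjusted p under 0.05, 266 genes were higher (2.03%) and 345 lower (2.63%), together 4.66% of the genes tested. DESeq2 on the same sums called 16 genes higher and 37 lower, while limma voom on libraries with the clone as a random block called 0. Of the 53 genes DESeq2 called, 41 had 4 shOgdh346 libraries apart from 4 control libraries. Of all genes tested, 3.34% showed that pattern upward and 3.18% downward. In the fit with the replicate block, 31 of the 53 were also called between the control clones, against 25.8% of 12185 genes. Ryr2, Kdm5d and Uty were among the 53 and had overlapping libraries. They were expressed in control clone 2 and at 0 in control clone 7. The count also depended on the filter, since edgeR without a filter on low counts called 355 genes higher and 472 lower. The prior degrees of freedom, which set how far each gene's spread is drawn to that of the others, came out infinite for every gene in that fit, against a median of 2.72 with the filter.

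The differences between clones of one hairpin were in the range of those between hairpins. The median absolute log2 difference was 0.18 for shOgdh346 clone 1 minus control clone 2, 0.13 for clone 1 minus control clone 7, 0.18 for clone 5 minus control clone 2 and 0.12 for clone 5 minus control clone 7. It was 0.14 between the shOgdh346 clones, 0.14 between the shOgdh2081 clones and 0.17 between the control clones. These 7 contrasts come from single libraries, so their p-values measure the spread between libraries of a clone.

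With libraries as replicates, 687 of 12185 genes (5.64%) were called between shOgdh346 clones 1 and 5, 691 (5.67%) between shOgdh2081 clones 3 and 5 and 1300 (10.7%) between control clones 2 and 7, in edgeR at an adjusted p under 0.05. Against control clone 2, 1687 genes (13.8%) were called for shOgdh346 clone 1 and 1533 (12.6%) for clone 5. Against control clone 7 the counts were smaller, at 575 (4.72%) for clone 1 and 202 (1.66%) for clone 5. The fewest calls of these 7 contrasts thus lay between 2 clones with different hairpins. With the replicate number as a block, more genes passed in each: 2395 (19.7%), 2250 (18.5%) and 3138 (25.8%) between the clones of shOgdh346, shOgdh2081 and the control, 3753 (30.8%) and 3489 (28.6%) against control clone 2, and 2269 (18.6%) and 1165 (9.56%) against control clone 7.

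**Figure D2:**
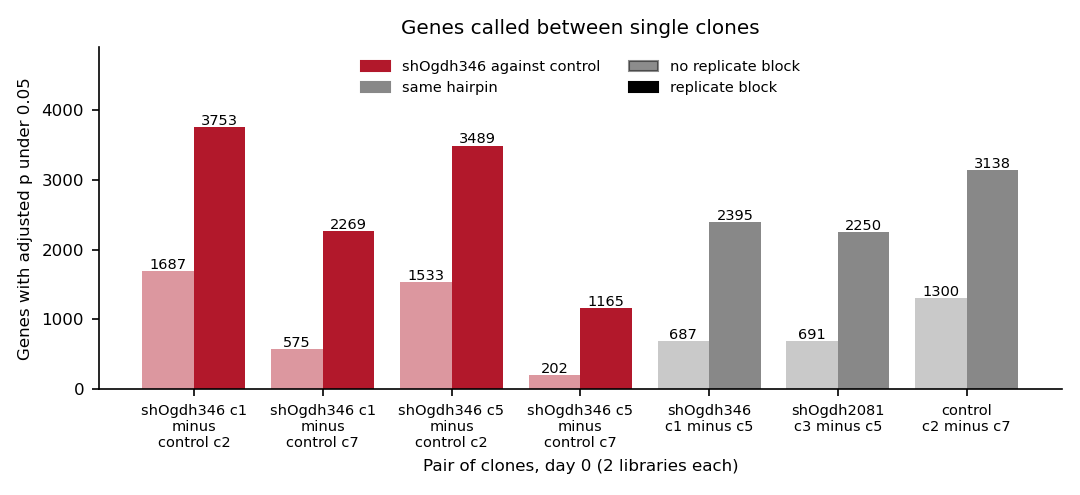
Number of genes with an adjusted p under 0.05 (vertical axis) in each pair of clones at day 0 (horizontal axis, 2 libraries a clone). Pale bars are without and solid bars with the replicate block. Red bars compare shOgdh346 with control clones and grey bars clones of one hairpin. The 3 pairs with control clone 2 have the tallest bars, from 3138 to 3753 genes with the block.

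Single genes set whole clones apart. Ryr2, which encodes a calcium release channel, had 1040 and 993 CPM in control clone 2, against 0 CPM in both libraries of control clone 7, and was also at 0 in the 4 shOgdh346 libraries. Ddx3y, a Y-linked RNA helicase gene, had 122 and 104 CPM in control clone 2 and 0 CPM in control clone 7. All genes of the Y chromosome together had 1507 and 1631 counts in the libraries of control clone 2, 0 in those of control clone 7 and at most 1 in any shOgdh346 library at day 0. Between the shOgdh346 clones, Smpdl3a, a gene of an acid sphingomyelinase-like enzyme, had 23.1 and 20.4 CPM in clone 1, against 0 CPM in both libraries of clone 5. Lpl, which encodes lipoprotein lipase, had 0.0534 and 0 CPM in clone 1, against 96.0 and 89.2 CPM in clone 5. These genes differ between clones of one hairpin and so cannot be read as a difference between hairpins.

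**Figure D3:**
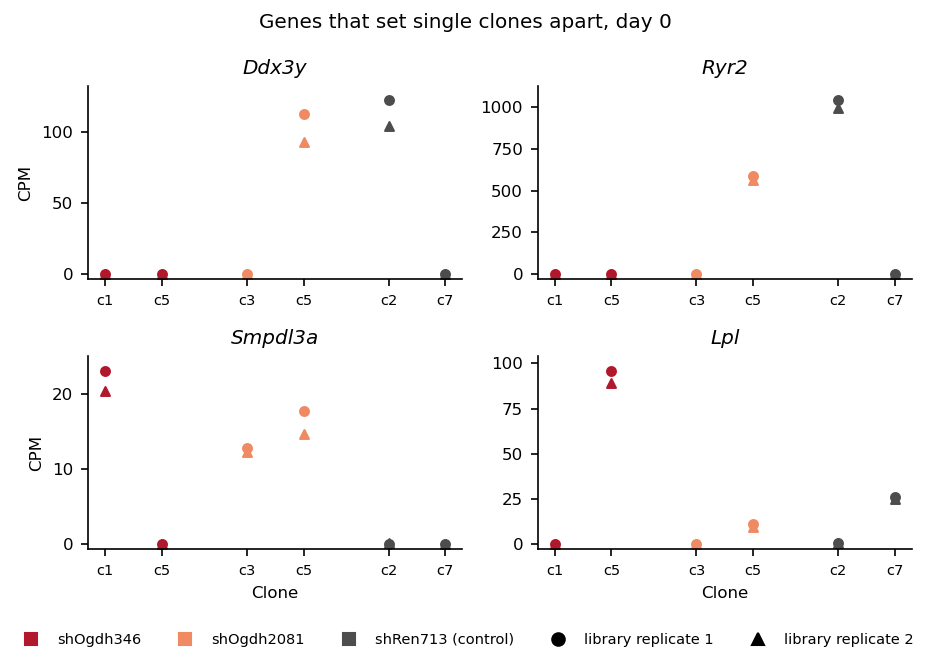
CPM (vertical axes) of 4 genes by clone (horizontal axis) at day 0, with shOgdh346 clones in red, shOgdh2081 clones in orange and control clones in grey. Circles are library replicate 1 and triangles library replicate 2. Ddx3y and Ryr2 are expressed in control clone 2 and shOgdh2081 clone 5, Smpdl3a in shOgdh346 clone 1 and both shOgdh2081 clones, and Lpl in shOgdh346 clone 5 most of all.

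The clone differences recurred in the day 4 libraries. Of 3112 genes called between control clones 2 and 7 at day 0 with the block and tested at day 4, 98.2% had the same sign at day 4, against 77.3% of all 11951 genes tested on both days. For shOgdh346 clones 1 and 5 it was 76.5% of 2371 genes, against 61.0% of all genes.

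Genes called the same way in all 4 pairs of a shOgdh346 clone and a control clone numbered 40 without the replicate block (0.328% of 12185), of which 21 were higher and 19 lower, and 213 with it (1.75%), of which 109 were higher (0.895%) and 104 lower (0.854%). Ogdh was among the 40. The pairs share libraries, and this count treats libraries as replicates, so it says that a difference held against every control clone and not that it would hold in further clones. Of the 53 genes that DESeq2 called on clone sums, 43 were among the 213, which is 81.1% of the first set and 20.2% of the second. Since no gene passed the adjusted test between groups, the genes below were chosen after their values were seen: the 12 largest and 12 smallest log2 differences among those of the 213 with at least 5 CPM in the higher group and with 4 libraries apart from 4, and the 8 smallest unadjusted p among genes with at least 5 CPM in the higher group. Predicted gene models were passed over. The 12 higher genes ran from 1.82 for Pdlim1 to 5.84 for Stag3, and the 12 lower genes from -3.15 for Wwc2 to -2.17 for Col4a1. Of these 24 genes, those with the largest differences and a further choice of the rest are described.

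Stag3, a cohesin subunit known from meiosis, had the largest difference upward, with 160, 188, 39.0 and 43.5 CPM in the shOgdh346 libraries, against 0.275, 1.01, 3.03 and 2.43 CPM in the control libraries (log2 5.84 ± 2.10 SE, unadjusted p = 0.0487 in edgeR). Sall3, a zinc finger transcription factor, had 24.8, 19.4, 53.5 and 45.8 CPM in shOgdh346, against 3.03, 0.630, 1.21 and 1.34 CPM in the control. The shOgdh346 clones differed in opposite ways in these genes, with clone 1 above clone 5 for Stag3 and below it for Sall3. In shOgdh2081, Stag3 had 53.7 and 51.4 CPM in clone 3 and 1.52 and 1.77 CPM in clone 5. Sall3 had 30.3 and 29.0 CPM in shOgdh2081 clone 3, within the range of shOgdh346, and 1.52 and 0.709 CPM in clone 5.

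Cdh17, a cadherin of cell adhesion, had 105, 83.5, 44.4 and 33.4 CPM in the shOgdh346 libraries, against 11.1, 9.83, 16.7 and 16 CPM in the control libraries. Within shOgdh346, clone 1 lay above clone 5 (log2 difference between groups 2.33 ± 0.61 SE, unadjusted p = 0.0153 in edgeR). The groups did not overlap, which the rule that chose these genes required. Lsp1, an actin-binding protein of leukocytes, had 73.8, 67.2, 32.7 and 21.3 CPM in shOgdh346, against 5.23, 4.28, 12.6 and 8.63 CPM in the control. Alcam, an adhesion molecule of the immunoglobulin family, had 17.1, 20.5, 11.3 and 9.12 CPM in shOgdh346, against 1.10, 1.51, 3.56 and 3.40 CPM in the control. Both had the order of clones seen for Cdh17, with shOgdh346 clone 1 highest and control clone 2 lowest.

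Cpa3, a mast cell and basophil protease also found in myeloid progenitors, had 47.4, 39.6, 27.2 and 18.8 CPM in shOgdh346, against 2.34, 1.89, 6.28 and 7.90 CPM in the control. Of the shOgdh2081 clones, clone 3 had 15.6 and 13.2 CPM, between the other groups, and clone 5 had 5.85 and 4.70 CPM, within the range of the control. Among the 14 mast cell, basophil and eosinophil markers, 9 were under 1 CPM in all 8 libraries and 4 of those were at 0, and the list summed to between 42.2 and 92.2 CPM in shOgdh346 and between 28.5 and 38.9 CPM in the control. Mcpt8, a basophil protease, had 24.3, 17.4, 19 and 12.9 CPM in shOgdh346 and 22.7, 17.3, 21.2 and 20.4 CPM in the control, with overlap between the groups. Siglecf, a receptor of eosinophils, had 18, 15.8, 7.91 and 6.79 CPM in shOgdh346, against 5.36, 4.54, 7.27 and 6.56 CPM in the control, and was above the control within each replicate number though not over all libraries. Ms4a2, a subunit of the IgE receptor, had 1.603, 1.594, 2.55 and 3.29 CPM in shOgdh346, against 3.71, 4.54, 2.57 and 3.40 CPM in the control. The list thus had no common direction, and the part of these cell types in the Cpa3 difference was not tested. In bulk RNA a different number of cells of a type and a different amount of RNA per cell cannot be told apart.

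The largest differences downward were in genes with low levels in shOgdh346. Wwc2, a scaffold protein of the Hippo pathway, had 2.14, 1.14, 1.88 and 2.23 CPM in shOgdh346, against 31.5, 25.6, 6.06 and 6.32 CPM in the control (log2 -3.15 ± 0.86 SE, unadjusted p = 0.0161 in edgeR). Nav1, which encodes a protein of the microtubule ends, had 0.908, 1.25, 1.21 and 0.955 CPM in shOgdh346, against 16.2, 16, 2.42 and 2.43 CPM in the control. In both genes control clone 2 lay well above control clone 7. Sox13 followed at -2.76, Crip1 at -2.61 and Galnt6, an enzyme of O-glycosylation, at -2.52. Sox13 had 1.34, 1.59, 0 and 0.106 CPM in shOgdh346. In shOgdh2081 Sox13 had 0.655 and 0.568 CPM in clone 3 and 7.06 and 7.45 CPM in clone 5.

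Serpine2, an inhibitor of serine proteases, had 16, 12.2, 5.23 and 9.97 CPM in shOgdh346, against 72.2, 65.6, 38.6 and 42.2 CPM in the control (log2 -2.25 ± 0.45 SE, unadjusted p = 0.00491 in edgeR). Retsat, a retinol saturase, had 9.67, 7.86, 15.7 and 12.7 CPM in shOgdh346, against 68.8, 61.4, 54.7 and 51.0 CPM in the control. In shOgdh2081 clone 3 Retsat was as low, at 9.96 and 7.95 CPM, while clone 5 had 70.6 and 65.4 CPM, so that one hairpin held both levels. Rxra, a nuclear receptor for retinoids, had 1.76, 1.71, 4.69 and 6.05 CPM in shOgdh346, against 29.4, 18.8, 16.3 and 9.96 CPM in the control. Col4a1, a collagen of basement membranes, had 3.69, 3.87, 4.29 and 3.18 CPM in shOgdh346, against 26.1, 16, 13.7 and 10.8 CPM in the control.

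Of the 8 genes with the smallest unadjusted p and at least 5 CPM in the higher group, Slc16a3 had the largest difference, at -1.44, and the others lay between -0.92 and 1.01. Below that level, Fam110c (-3.21, unadjusted p = 0.000315 in edgeR) and Ak4 (-6.01, unadjusted p = 0.000561), at 0 in 3 of 4 shOgdh346 libraries, had p-values in the same range. Mid1ip1, a cofactor that promotes fatty acid synthesis by acetyl-CoA carboxylase, had 74.3, 67.0, 71.9 and 70.2 CPM in shOgdh346, against 113, 106, 107 and 93.5 CPM in the control (log2 -0.57 ± 0.07 SE, unadjusted p = 0.000196 in edgeR, the smallest of all). Snx30, a sorting nexin of endosomes, had 57.3, 54.5, 53.2 and 56.4 CPM in shOgdh346, against 36.9, 35.7, 37.1 and 37.5 CPM in the control, a log2 difference of 0.60 ± 0.08 SE. Neither gene passed the threshold between the clones of one hairpin in the fit with the block. The edgeR adjusted p was 0.973 for Mid1ip1 and 0.805 for Snx30 in shOgdh346 clones, and 0.157 and 0.780 in control clones. Both genes were picked by a test against the spread between clones, so a small clone difference follows in part from the choice. With 2 libraries a clone, these values do not show that the clones agree. Both genes also stood apart from shOgdh2081, in which Mid1ip1 had 104 to 106 CPM and Snx30 had 32.5 to 38.8 CPM. The log2 difference of shOgdh346 from shOgdh2081 was -0.55 for Mid1ip1 and 0.62 for Snx30.

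Ipcef1, which encodes a partner of cytohesin exchange factors, had 16, 17, 19.98 and 19.3 CPM in shOgdh346, against 8.12, 8.31, 8.33 and 11.3 CPM in the control. Prkab2, a regulatory subunit of AMP-activated protein kinase, had 25, 20.3, 26.4 and 21.1 CPM in shOgdh346, against 14.6, 13.4, 15.2 and 16.9 CPM in the control. Arhgef28, a guanine nucleotide exchange factor, had 13.3, 12.3, 14.2 and 11 CPM in shOgdh346, against 24.5, 27.1, 23.1 and 20.2 CPM in the control. In each of these genes the groups did not overlap, and each was called by DESeq2. The genes were picked by a small p on the same clone sums, so both traits follow in part from the choice. Of the 13125 genes tested, 3.34% had shOgdh346 libraries apart upward and 3.18% downward, and DESeq2 called 53.

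**Figure D4:**
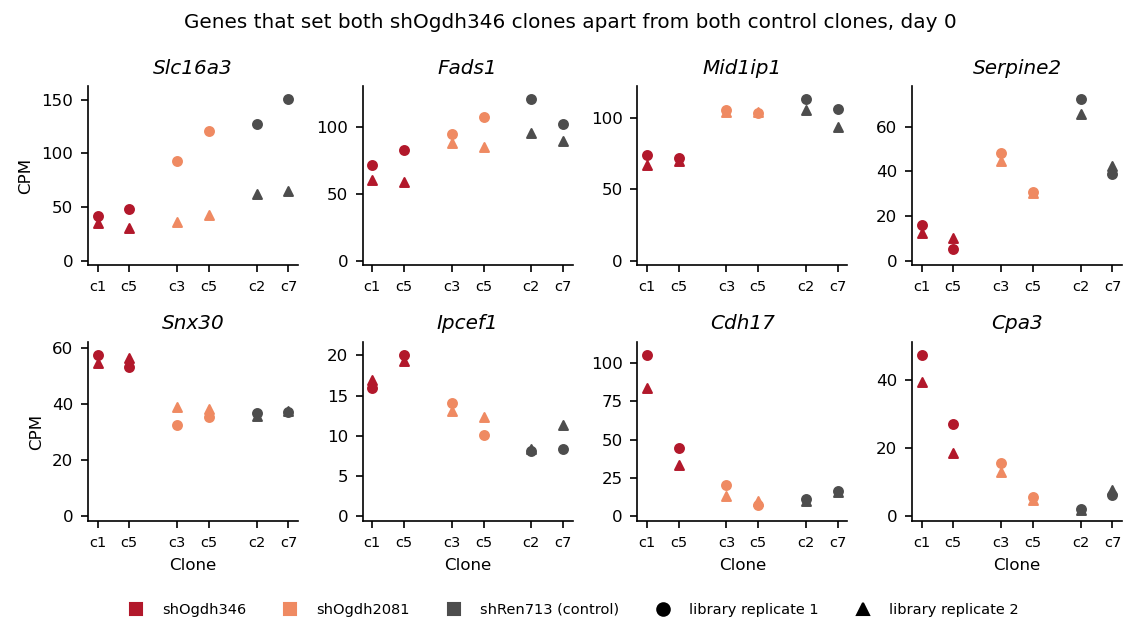
CPM (vertical axes, linear) of 8 genes by clone (horizontal axis) at day 0, with shOgdh346 clones in red, shOgdh2081 clones in orange and control clones in grey. Circles are library replicate 1 and triangles library replicate 2. In each panel the 4 shOgdh346 libraries lie below (top row) or above (bottom row) the 4 control libraries, and for Cdh17 and Cpa3 shOgdh346 clone 1 lies above clone 5.

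Genes of cholesterol and fatty acid synthesis were lower in shOgdh346 as a list. Of 28 tested members, all had a log2 difference below 0, with a median of -0.41, against -0.01 over all genes tested. At an unadjusted p under 0.05, 10 were lower and 0 higher, against 2.63% and 2.03% of all genes, and both shOgdh346 clones lay below both control clones for 11 of 28, against 16% of all genes. None passed the adjusted test in edgeR. Fads1, a fatty acid desaturase, had 71.8, 60.2, 82.8 and 59.2 CPM in shOgdh346, against 121, 95.5, 102 and 89.3 CPM in the control (log2 -0.58 ± 0.08 SE). Srebf2, the master regulator of cholesterol synthesis genes, had 327, 256, 339 and 267 CPM in shOgdh346, against 396, 315, 427 and 347 CPM in the control (log2 -0.32 ± 0.08 SE). Its groups overlapped over libraries but not within replicate 1 (327 and 339 against 396 and 427 CPM) or within replicate 2 (256 and 267 against 315 and 347 CPM).

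Fads2, which acts beside Fads1, had 50.5, 23.6, 88.5 and 39.9 CPM in shOgdh346, against 118, 75.6, 133 and 86.9 CPM in the control. Srebf1, which drives fatty acid synthesis genes, had 177, 120, 185 and 129 CPM in shOgdh346, against 232, 160, 257 and 204 CPM in the control. Fasn and Acly were closer to the control, at -0.14 and -0.10. Members of the list ran from -4.04 to -0.04.

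The list was uneven over clones. Its median was -0.51 for shOgdh346 clone 1 minus control clone 2 and -0.77 for clone 1 minus control clone 7, but 0.00 for clone 5 minus control clone 2 and -0.32 for clone 5 minus control clone 7. It was -0.45 between the shOgdh346 clones and -0.31 between the control clones, a size near that between hairpins. Without shOgdh346 clone 1 the median was -0.20, without shOgdh346 clone 5 -0.62, without control clone 7 -0.21 and without replicate 2 of shOgdh346 clone 5 -0.25. Within replicate 1 it was -0.32 and within replicate 2 -0.54. Against shOgdh2081 the median was -0.55, with 15 of 28 members lower at an unadjusted p under 0.05, where 2.65% of all genes were.

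Glycolysis and lactate genes had a median log2 difference of -0.22 over 23 tested members, with 7 lower and 0 higher at an unadjusted p under 0.05, against 2.63% lower and 2.03% higher over all genes tested. Slc16a3, the lactate exporter also called MCT4, stood out. In replicate 1 it had 41.7 and 48.2 CPM in shOgdh346 clones 1 and 5, against 127 and 150 CPM in control clones 2 and 7, and in replicate 2 it had 35.0 and 30.3 CPM in shOgdh346, against 62.5 and 64.6 CPM in the control. Replicate 1 was above replicate 2 in every clone, and the shOgdh346 libraries lay below all control libraries (log2 -1.44 ± 0.18 SE, unadjusted p = 0.000281 and adjusted p = 0.958 in edgeR, adjusted p = 6.79e-09 in DESeq2). Slc16a3 was not among the genes called in all 4 clone pairs. With the replicate block, clone 5 minus control clone 7 had an adjusted p of 0.0566 in edgeR. The shOgdh2081 clones had 93.1 and 120 CPM in replicate 1 and 36.2 and 42.1 CPM in replicate 2.

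Hk1, a hexokinase, had 133, 129, 138 and 138 CPM in shOgdh346, against 165, 157, 193 and 188 CPM in the control. In shOgdh2081 Hk1 had 142, 133, 155 and 140 CPM, a log2 difference of -0.31 from the control. Tpi1 had a log2 difference of -0.32 and Gpi1 of -0.36, both enzymes of the glycolytic chain. Slc2a3, a glucose carrier, went the other way at 2.37 (unadjusted p = 0.12 in edgeR). The log2 difference of shOgdh346 from shOgdh2081 was -0.08 for Hk1, -0.30 for Tpi1 and -0.32 for Gpi1. For 7 of 23 members the shOgdh346 libraries lay below the control libraries within each replicate number and for 0 above them, against 6.81% and 7.18% of all genes. The median of the list was -0.10 without shOgdh346 clone 1, -0.08 without control clone 7, -0.08 and -0.07 without replicate 1 of control clones 2 and 7, and -0.10 without replicate 2 of shOgdh346 clone 5.

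Targets of hypoxia-inducible factor, the oxygen-sensing transcription factor, had a median of -0.19 over 18 members, with 3 lower and 0 higher at an unadjusted p under 0.05, against 2.63% lower and 2.03% higher over all genes tested. Bnip3, a mitophagy receptor, had 6.14 and 11.8 CPM in replicate 1 of shOgdh346 clones 1 and 5, against 19.4 and 20.4 CPM in control clones 2 and 7. In replicate 2 it had 2.73 and 4.77 CPM in shOgdh346, against 7.68 and 9.48 CPM in the control (log2 -1.20 ± 0.25 SE). Pdk1, a kinase that inhibits pyruvate dehydrogenase, had 71.8 and 89.7 CPM in shOgdh346, against 108 and 103 CPM in the control in replicate 1, and 48.7 and 52.1 against 59.8 and 62.8 CPM in replicate 2. Replicate 1 was higher than replicate 2 for Bnip3 and Pdk1 in each shOgdh346 and control clone. The median of the list was -0.04 without shOgdh346 clone 1, -0.04 without control clone 7, and between -0.12 and -0.09 without replicate 1 of control clone 2, replicate 1 of control clone 7 or replicate 2 of shOgdh346 clone 5. The part of the replicate number in these values was not tested.

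The stretches before the starts of Slc16a3 and Bnip3 are shown because Slc16a3 had the lowest log2 difference of the glycolysis and lactate list and Bnip3 that of the hypoxia-inducible factor list. The letters ACGTG, the core of the hypoxia response element, were searched on both strands of the 250 bases before the RefSeq start (GRCm38.p6) and are in capitals. The Slc16a3 stretch is chr11:120948817-120949066 on the plus strand and the Bnip3 stretch chr7:138909507-138909756 on the minus strand.
Slc16a3: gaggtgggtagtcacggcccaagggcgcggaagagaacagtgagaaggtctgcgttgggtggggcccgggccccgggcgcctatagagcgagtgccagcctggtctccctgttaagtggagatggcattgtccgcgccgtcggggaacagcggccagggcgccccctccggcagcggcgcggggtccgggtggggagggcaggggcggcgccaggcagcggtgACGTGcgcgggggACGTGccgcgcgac
Bnip3: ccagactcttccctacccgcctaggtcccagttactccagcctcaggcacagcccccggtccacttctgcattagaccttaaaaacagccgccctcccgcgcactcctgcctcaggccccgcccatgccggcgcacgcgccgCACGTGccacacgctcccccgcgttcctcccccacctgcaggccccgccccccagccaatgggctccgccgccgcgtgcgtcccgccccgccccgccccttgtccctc
Slc16a3 has 2 matches, which begin 27 and 14 bases before the start. In Bnip3 the matches on the 2 strands overlap as CACGTG, which is also the E-box motif. Of the 32851 RefSeq promoters, 16.6% hold ACGTG in the same window, as do 10 of 23 glycolysis and lactate genes and 11 of the 17 listed hypoxia-inducible factor targets with an entry. Tpi1, Gpi1, Hk1 and Pdk1 hold none in this window. A match describes letters only.

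Interferon-stimulated genes had a median log2 difference of 0.14 over 30 tested members, with 5 higher and 0 lower at an unadjusted p under 0.05, against 2.03% higher and 2.63% lower over all genes tested. Mx1, an antiviral GTPase, had 5.61, 4.21, 7.24 and 5.83 CPM in shOgdh346, against 0.963, 0.882, 1.97 and 2.55 CPM in the control (log2 1.87 ± 0.45 SE). Usp18, which removes the ubiquitin-like modifier ISG15, had 1.18, 1.59, 2.01 and 1.27 CPM in shOgdh346, against 0.413, 0.504, 0.530 and 0.729 CPM in the control. Isg15 itself had a log2 difference of -0.79 (unadjusted p = 0.25 in edgeR), and the list's median was 0.03 in replicate 2 alone, 0.07 without shOgdh346 clone 1, 0.05 without control clone 7, 0.26 without control clone 2. Neither Mx1 nor Usp18 passed the adjusted test.

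Some further lists of metabolism had medians near the -0.01 of all genes tested. The median was 0.02 for 26 tricarboxylic acid cycle genes, -0.00 for 38 nuclear subunits of oxidative phosphorylation and 0.01 for 41 dioxygenases that use 2-oxoglutarate. Suclg1, a subunit of the succinyl-CoA ligase that acts next after the 2-oxoglutarate dehydrogenase complex, had 131, 120, 125 and 125 CPM in shOgdh346, against 113, 98.3, 119 and 110 CPM in the control (log2 0.19 ± 0.07 SE, unadjusted p = 0.0468 in edgeR). The 7 tested transcripts of mitochondrial DNA had a median of 0.14, led by mt-Co1, a subunit of cytochrome oxidase, at 0.23 ± 0.06 SE. The lowest of the 7 stood at 0.05. Both shOgdh346 clones lay above both control clones for 5 of the 7, against 17.3% of all genes. The median of these transcripts for shOgdh2081 minus control was also 0.14. The genes of the ATF4 stress response had a median of -0.13 over 29 members. At an unadjusted p under 0.05, 0 were higher and 2 lower, against 2.03% and 2.63% of all genes tested. The 2 lower genes were Atf4 itself (-0.37) and Slc7a11 (-0.27), the cystine carrier. The median of the ATF4 list was -0.15 and -0.35 for shOgdh346 clone 1 minus control clones 2 and 7. For clone 5 it was 0.09 and -0.07. It was -0.29 for shOgdh346 clone 1 minus clone 5 and -0.21 for control clone 2 minus clone 7.

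**Figure D5:**
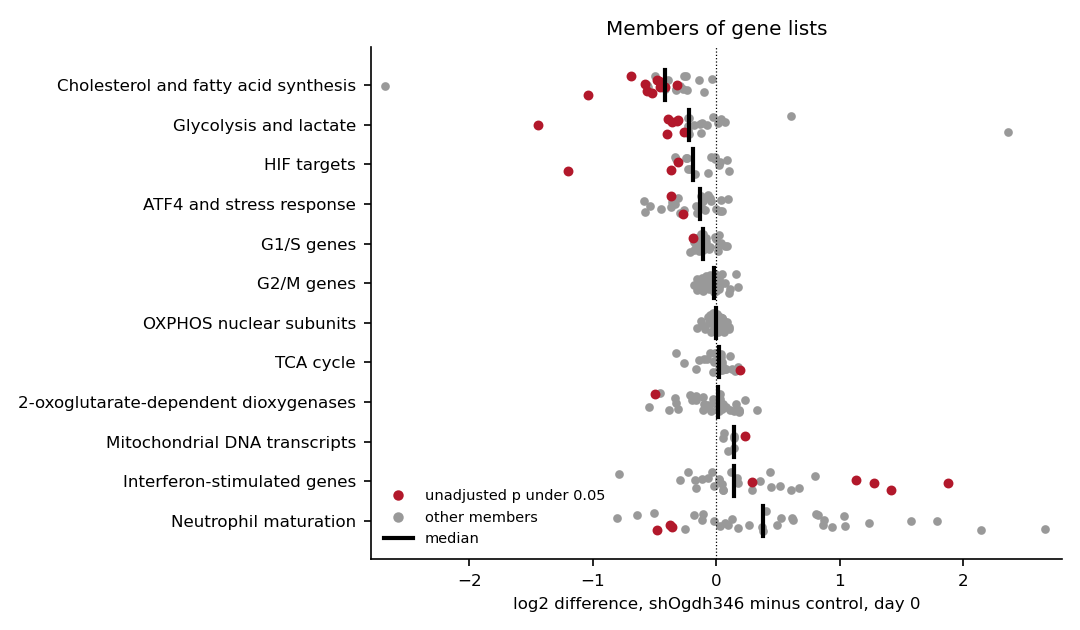
Log2 difference of shOgdh346 minus control at day 0 (horizontal axis) for the tested members of 12 gene lists (rows). Red points have an unadjusted p under 0.05, grey points do not, and black bars are medians; 1 member lies outside the axis. Medians run from -0.41 for cholesterol and fatty acid synthesis to 0.37 for neutrophil maturation.

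Genes of myeloid maturation and of leukaemia self-renewal had mixed directions. Neutrophil maturation genes had a median of 0.37 over 36 members. Yet at an unadjusted p under 0.05, 0 were higher and 3 lower, against 2.03% and 2.63% of all genes tested. The median was 1.28 and 1.11 for shOgdh346 clones 1 and 5 minus control clone 2, but -0.04 and -0.05 minus control clone 7, and -1.46 for control clone 2 minus clone 7. S100a8, a calcium-binding protein of neutrophils, had 778, 1218, 434 and 440 CPM in shOgdh346, against 101 and 109 CPM in control clone 2 and 898 and 566 CPM in control clone 7. The median of the list thus depended on which control clone was used.

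Ctsg, a protease of primary granules, had 1251, 1057, 1052 and 853 CPM in shOgdh346, against 1599, 1590, 1555 and 1429 CPM in the control (log2 -0.55 ± 0.12 SE). The 16 tested primary granule genes had a median of -0.06. At an unadjusted p under 0.05, 1 was higher and 1 lower, against 2.03% and 2.63% of all genes tested. The higher one was Calr, at 0.16. Meis1, a cofactor of HOX proteins in leukaemia, had 38.4, 42.8, 34.1 and 36.6 CPM in shOgdh346, against 55.2, 46.5, 65.5 and 59.9 CPM in the control (log2 -0.60 ± 0.14 SE). Runx1, a transcription factor of blood formation, had 48.1, 51.4, 49.4 and 57.6 CPM in shOgdh346, against 21, 22.4, 35.4 and 35.2 CPM in the control (log2 0.84 ± 0.24 SE). Bcl2, which blocks cell death, had 148, 160, 142 and 173 CPM in shOgdh346, against 91.1, 102, 114 and 131 CPM in the control (log2 0.51 ± 0.11 SE). The log2 difference of shOgdh346 from shOgdh2081 was -0.58 for Ctsg, -0.24 for Meis1, 1.06 for Runx1 and 0.61 for Bcl2. Meis1 was also lower in shOgdh2081 than in the control, at -0.37. Over the 29 tested self-renewal genes, 2 were higher and 2 lower at an unadjusted p under 0.05, against 2.03% and 2.63% of all genes. Of 40 G1/S genes, 1 was lower and 0 higher at that threshold, against the same shares, with a median of -0.11. Both shOgdh346 clones lay below both control clones for 21 of the 40, against 16% of all genes. The median of the G1/S genes was also below 0 for shOgdh2081 minus control, at -0.07. It was -0.03 for shOgdh346 minus shOgdh2081.

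Genes that changed when shOgdh2081 was induced had day 0 differences between shOgdh346 and control centred near 0. With shOgdh2081, whose libraries are not in that difference, 7607 of 14249 genes (53.4%) changed between day 4 and day 0 (edgeR with the clone as a block, adjusted p under 0.05), 3914 higher and 3693 lower at day 4. At day 0 the 1248 of these that rose more than 2-fold had a median log2 difference of -0.03 between shOgdh346 and control, and the 720 that fell more than 2-fold had 0.01. Both shOgdh346 clones lay above both control clones for 15.5% of the first set and 19.4% of the second, against 17.3% of all genes tested, and below them for 18.4% and 15.3%, against 16%.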

How the data were processed

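RNA was sequenced from clones of RN2 cells; 8 of 24 libraries form the comparison, and 4 day 0 libraries of shOgdh2081 share its estimate of the spread. The authors deposited raw counts per Ensembl gene; a transcript length in bases is also given and was used only for levels per kilobase. The submitters' processing notes name featureCounts 1.6.3, STAR 2.6.1a, FastQC 0.11.5, Trimmomatic 0.36 and the build mm10 (GRCm38), with no role or order. The labels' protocols name another build, counter and unit (RPKM), which the whole-number mouse counts do not match. The sources used here state neither the strand setting nor how multi-mapped reads were handled, so genes that overlap or have near-identical copies are uncertain.

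Counts of the 2 libraries of a clone were summed, and 6 day 0 sums in 3 groups were tested in edgeR 4.0.16 (R 4.3.3; filterByExpr, TMM, robust quasi-likelihood test, 3 residual degrees of freedom, Benjamini-Hochberg adjustment over 13125 genes, threshold 0.05). Each SE was derived from the log2 difference and its F statistic. Clone contrasts used the 12 single day 0 libraries. CPM were scaled by TMM over 24 libraries. Replicate numbers pair the libraries at day 0: the deviations of replicate 2 from replicate 1 correlated across genes between clones at 0.387 to 0.497 in 15 clone pairs, so blocked counts stand beside the others. DESeq2 1.42.0 and limma 3.58.1 were alternatives. Simulated counts were used to check the test. The rule for named genes took Ogdh, the 12 largest and 12 smallest log2 differences among genes that passed the adjusted test (none did), the 4 largest and 4 smallest of each clone contrast, and up to 4 members of each list with the smallest p. Genes named from the 4 clone pairs or by smallest p, and further list members and markers named with values (among them S100a8, Mcpt8, Fasn, Acly, Slc2a3, Isg15, Siglecf, Ms4a2, Fam110c, Ak4 and Flt3), were chosen after their values were seen. The members and lists were chosen with earlier results of these data known.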

Additional observations from a re-analysis of the deposited data

Results flagged for a closer look

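The difference of shOgdh346 from control differed between day 4 and day 0, by edgeR's test of the difference of differences with the clone as a block, for 5 of the 9 genes tested (Ogdh and the 8 with the smallest p among genes with at least 5 CPM in the higher group). Beyond its day 0 difference, Ogdh was lower by a further -1.64 ± 0.21 (log2, SE) at day 4 (adjusted p = 0.00114). Slc16a3 changed direction, at 0.99 on day 4 against -1.44 on day 0, a difference of 2.37 ± 0.23 (adjusted p = 0.000399). Ipcef1 stood at 3.34 on day 4 and 1.01 on day 0, a difference of 2.31 ± 0.24 (adjusted p = 0.000251). Fads1 stood at -1.12 on day 4 and -0.58 on day 0, a difference of -0.57 ± 0.12 (adjusted p = 0.00738), and Snx30 at 0.04 on day 4 and 0.60 on day 0, a difference of -0.61 ± 0.19 (adjusted p = 0.0370). Over all genes, 4965 of 14249 had such a difference, so these genes are not singled out by it. The 8 genes were picked by their day 0 values, which also enter this test. A smaller difference at day 4, as for Snx30, thus follows in part from the choice.

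In 4 of 180 groups of 4 libraries tested, 1 library lay far from the other 3, where chance flags about 1 group in 20 if the libraries are independent. Each group held 2 libraries of each of 2 clones, and the genes were chosen by their values, so that rate is only a rough guide. Ipcef1 had 11.3 CPM in replicate 2 of control clone 7 and 8.12 to 8.33 CPM in the other control libraries. In shOgdh346, Cd34 had 673 CPM in replicate 1 of clone 5 and 748 to 761 CPM in the others, Klf1 had 0.939 CPM in the same library and 0.636 to 0.683 CPM in the others, and Ddx3y had 0.0534 CPM in replicate 1 of clone 1 and 0 in the others.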

How the results depend on the processing

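Over 23 alternatives the log2 difference of Ogdh stayed between -0.83 and -0.60, with the same sign in each, and its adjusted p ran from 1.05e-09 to 1. It passed the threshold in 4: DESeq2 (-0.72), no filter on low counts (-0.71), and libraries as replicates without (-0.71, adjusted p = 0.0469) or with (-0.71, adjusted p = 0.0237) the replicate block. Genes called higher and lower between shOgdh346 and control, 0 and 0 as reported, came to 16 and 37 with DESeq2, to 355 and 472 without a filter, to 6 and 7 with libraries as replicates and no replicate block, and to 36 and 43 with the replicate block, where the libraries of a clone count as independent. Leaving out a clone, a library or a replicate number gave 0 to 4 genes higher and 0 to 3 lower; the most came without control clone 7 (4 and 3), and 1 higher came without shOgdh346 clone 5. DESeq2 called 2 genes and no filter 183 for shOgdh2081 minus control, and 87 and 858 for shOgdh346 minus shOgdh2081, where edgeR called 0 in both, with 225 and 706 at an unadjusted p under 0.05. With the replicate block the clone contrasts came to 2395 and 3138 genes, and those shared by all 4 pairs to 213; without a filter that count was 85. The prior degrees of freedom with and without the filter are given in the report; the cause of the other changes was not tested. Other named genes kept their sign and side in 1891 settings and passed the threshold in 111; 2 reversed: H2-Oa, which ran from -0.12 without shOgdh346 clone 1 to 0.81 without clone 5, and Ddx3y, which ran from -13.04 without shOgdh346 clone 1 to 2.26 without control clone 2, fitted values that depend on the prior count. With 2 clones a hairpin, each left-out clone leaves a group of 1, assumed to vary like the others.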

Other observations

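The clones differed in transcripts of the Y chromosome. Summed Y-linked counts were at most 1 in each library of both shOgdh346 clones, shOgdh2081 clone 3 and control clone 7 at day 0, 2395 and 2042 in shOgdh2081 clone 5, and 1507 and 1631 in control clone 2. At day 4 the sum was 1822 and 1921 in shOgdh2081 clone 5 and 1872 in both libraries of control clone 2. Xist, the RNA that silences an X chromosome, had at most 1 count in any day 0 library. Ryr2 had the same pattern, with 587 and 566 CPM in shOgdh2081 clone 5 and 1040 and 993 CPM in control clone 2. Flt3, a receptor of progenitors, and Cd79b, a B cell receptor subunit, each marked 1 shOgdh346 clone: Flt3 had 32.5 and 44.7 CPM in clone 1 and 2.4 and 5.1 CPM in clone 5, while Cd79b had 0.374 and 0.797 CPM in clone 1 and 14.9 and 16.3 CPM in clone 5. Medians by chromosome ran from -0.04 to 0.02 for shOgdh346 minus control.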
